A study of Mus musculus with 5 samples.

Results

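Freshly isolated CD8+ T cells were compared with the same kind of cell after 72 h of culture with antigen-loaded dendritic cells, to separate genes that stayed away from their starting level from genes that came back to it. Members were chosen by the deposited cell annotation alone: 2952 cells of the 0 h library and 1926 cells of the library taken at 72 h with dendritic cells (DCs), together 4878 of the 13629 cells of the series. All cells were OT-I CD8+ T cells from spleen and lymph nodes of mice of the strain C57BL/6-Tg(TcraTcrb)1100Mjb/J, whose T cell receptor comes from a transgene and recognises SIINFEKL, a peptide of ovalbumin. The 0 h cells had not been cultured with DCs, and the 72 h cells had been cultured with DCs pulsed with SIINFEKL. Each was enriched by flow sorting before capture on the 10x Genomics platform. The library taken at 24 h with DCs (1562 cells) gave the intermediate level, and the library taken at 72 h with DCs and myeloid-derived suppressor cells (MDSCs, 4942 cells) gave values set beside those at 72 h with DCs. Each group was 1 library and no library came from cells cultured without DCs, so time in culture and stimulation cannot be told apart, no difference has a replicate check, and no test was run. Below, 72 h means 72 h with DCs unless MDSCs are named.

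When a resting CD8+ T cell meets its peptide on a DC, it leaves quiescence, secretes cytokines, enlarges and builds ribosomes, and then divides repeatedly while it turns into a cytotoxic effector. Early signal-driven transcripts are known to be short lived, whereas effector cells keep an altered metabolism, cell cycle and homing program for days. Resting cells hold homing and quiescence factors such as Klf2, Tcf7 and Lef1 at high levels and rely mainly on respiration, while dividing effectors take up glucose and release lactate.

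Levels are given in CPM, a gene's summed adjusted values per 1000000 of its library. The deposited values had been adjusted to a nearly constant total per cell (13061 to 15988 over all 13629 cells), so the molecules sequenced per cell are unknown and levels are relative. Median genes above 0 per cell were 2210 at 0 h and 3217 at 72 h. The 0 h library stood apart in its values: 31.0% of its values above 0 equalled 1 and 31.4% equalled 2, against 49.9 to 54.3% and 18.0 to 19.6% in the other 4 libraries. Ribosomal protein genes took 45.2% of the total at 0 h and 38.1% at 72 h. The 2 libraries compared shared 8 cell barcodes. Cd3d, Cd3g, Cd8a and Cd8b1, which define the cell type, were above 0 in 97.9 to 100.0% of cells in both. Of 9 marker lists of other cells, the granulocyte list summed to 1.02 CPM at 0 h and 0.103 at 72 h (4 of 5 measured members at 0), the monocyte and macrophage list to 5.18 and 7.61, the gamma delta T cell list to 3.17 and 0.754, and the erythroid list to 1.02 and 1.54. The dendritic cell list summed to 127 and 197 CPM, of which Cst3 gave 126 and 147, while Itgax and Zbtb46 were at or below 0.194 CPM. The CD4 T cell list summed to 37.7 and 390 CPM through Tnfrsf4, Ctla4 and Ikzf2, with Cd4 itself at 0 and 0.171. The NK cell list summed to 223 and 238 CPM, mostly through Txk and Gzma, with Tyrobp and Fcer1g at 8.37 CPM or less. The B cell list, at 18.2 and 23.1 CPM, was nearly all Cd79b.

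A gene was followed when it reached 20 CPM at 0 h, at 24 h or at 72 h, which 5579 of 13911 genes did. It was called at 2-fold, after levels under 10 CPM were raised to 10, and every log2 ratio below is taken after that step. At 72 h 1129 genes were 2-fold higher than at 0 h (20.2% of those followed) and 255 were 2-fold lower (4.57%). At 24 h 2030 had been higher (36.4%) and 572 lower (10.3%). The median log2 ratio over all genes followed was 0.59 at 24 h and 0.29 at 72 h. With log2 ratios centred on that median the split at 72 h became 676 higher and 423 lower.

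Both ratios use the same 0 h library. By the pair of calls, 736 genes (13.2%) differed from 0 h in the same direction at both times and are called lasting. Another 1815 (32.5%) differed at 24 h and lay within 2-fold at 72 h, and are called returned. A further 597 (10.7%) differed at 72 h only and are called late. On opposite sides at the 2 times lay 51 (0.914%), called crossed, and 2380 (42.7%) were within 2-fold at both times. Of the 2030 genes higher at 24 h, 71.6% had returned and 27.6% were lasting. Of the 572 genes lower at 24 h, 63.3% had returned and 30.8% were lasting. Among the 1129 genes higher at 72 h, 560 were lasting (10.0% of those followed), 535 late (9.59%) and 34 crossed from below (0.609%). Among the 255 lower ones, 176 were lasting (3.15%), 62 late (1.11%) and 17 crossed from above (0.305%). Lasting genes are thus a minority of the 24 h response in both directions. The division between lasting and late rests on the 10 CPM floor: with a floor of 1 CPM 1099 genes were lasting and 424 late.

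**Figure D1:**
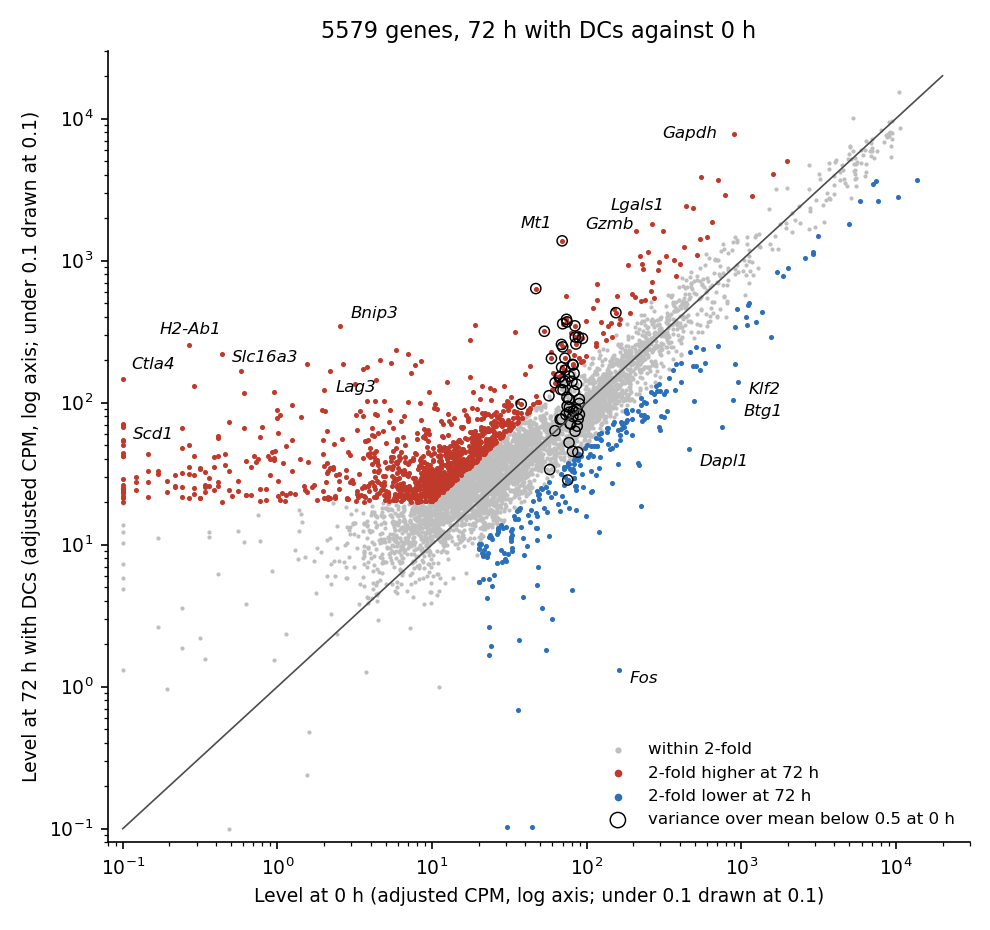
Level of each of the 5579 genes followed at 0 h (x) and at 72 h with DCs (y), both on log axes in adjusted CPM, with 1 library per axis and the line of equal level. Red points are the 1129 genes 2-fold higher at 72 h, blue points the 255 lower ones, and black rings the 60 genes with a variance over mean below 0.5 at 0 h, which lie between 37.7 and 154 CPM on the 0 h axis.

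Some starting levels are themselves doubtful. In 60 genes at 20 CPM or more at 0 h the variance across the 0 h cells was below 0.5 of the mean, a spread narrower than counts of independent molecules give, and no gene had this in any of the other 4 libraries. These genes lay at 37.7 to 154 CPM at 0 h and were above 0 in 52.6 to 99.7% of 0 h cells. In the 72 h cells the same genes had a median variance over mean of 1.43 and a lowest value of 1.11. Members just inside the limit were P4hb at 0.492, Cyb5b at 0.497, Impa2 at 0.497 and Ppid at 0.499, and the nearest genes outside were Tpi1 at 0.504, Eif1ad at 0.504, Siva1 at 0.505 and Ak6 at 0.506. Of the 60, 24 were higher at 72 h, 1 was lower and 35 lay within 2-fold. Without them the counts were 1105 higher and 254 lower. They are marked as low variance wherever they are named below, and their distance from 0 h is given as a value only. Of the 8 with the highest level at 0 h, the mitochondrial protein gene Chchd10 was at 154 CPM at 0 h and 430 at 72 h, the fatty acid binding protein gene Fabp5 at 93.8 and 283, and the phosphatase gene Pgp at 88.4 and 289. The other 5 (Cdc34, Cyb5b, Mthfd2, Slmo2 and Ppid) were at 87.7 to 89.7 CPM at 0 h and 44.7 to 106 at 72 h. Activation receptors were among the 60 too: Il2ra, the interleukin 2 receptor alpha chain, had a variance over mean of 0.0573 and was above 0 in 94.8% of 0 h cells against 63.8% of 72 h cells. Tnfrsf9, which encodes the costimulatory receptor 4-1BB, had 0.127 and was above 0 in 94.1% and 83.0%.

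**Figure D2:**
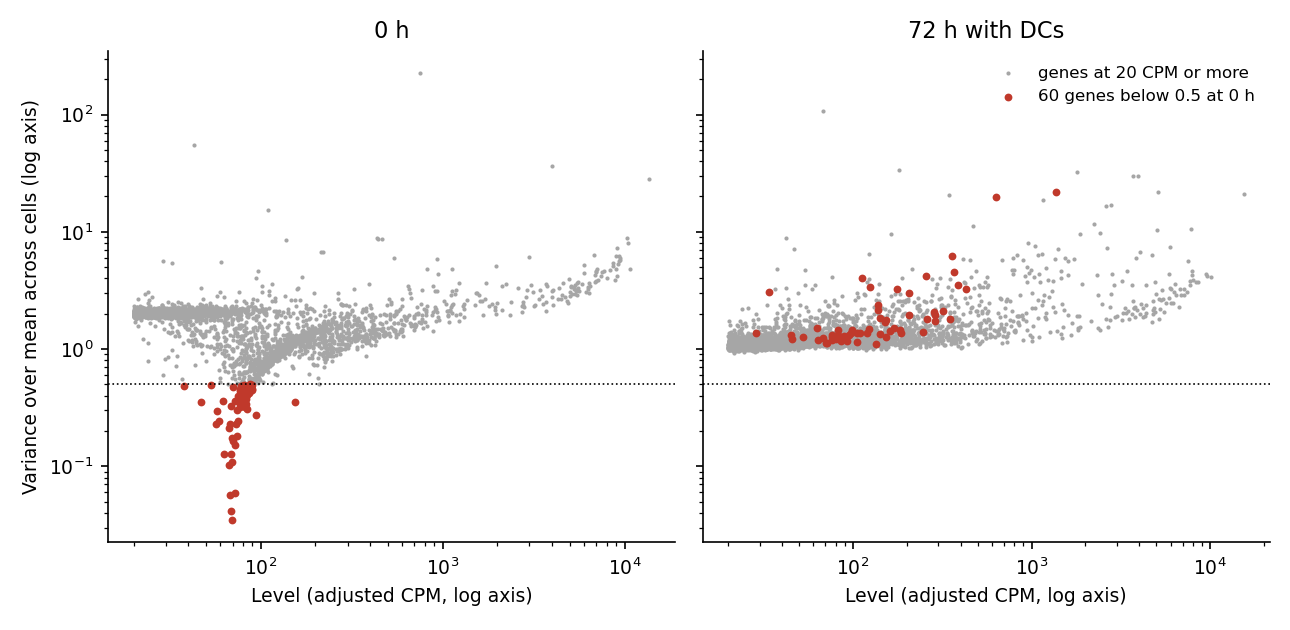
Variance over mean across cells (y, log axis) against level (x, adjusted CPM, log axis) for genes at 20 CPM or more at 0 h (left) and at 72 h with DCs (right), 1 point per gene. The 60 genes below the dotted line at 0.5 on the left (red) lie at 1.11 or above on the right.

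Among the genes farthest above their starting level were genes of the response to low oxygen and of glucose use. Outside these programs, the large ratios included H2-Ab1, described further on, the uncharacterised gene 1500009L16Rik at 6.97, 1.11 and 220 CPM at 0 h, 24 h and 72 h, Prelid2 at 4.57, 11.1 and 199, the noncoding gene Lockd at 5.42, 2.35 and 190, and Pafah1b3 at 7.81, 7.78 and 183. Hypoxia-inducible factor (HIF) is a transcription factor that is degraded while its prolyl hydroxylases work, and its targets include genes of glucose uptake, glycolysis, mitochondrial removal and the hydroxylases themselves. Of 21 hypoxia and HIF target genes followed, 20 were higher at 72 h and none lower, with a median log2 ratio of 2.71 against 0.29 over all genes. At 24 h 4 had been higher and 3 lower (median 0.13). By class 14 were late, 4 lasting, 2 crossed and 1 returned. At 72 h with MDSCs, where 17.9% of all genes followed were higher than at 0 h and 6.49% lower, 8 of the 21 were higher and none lower (median 0.81).

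Bnip3, a mitochondrial protein that marks mitochondria for removal, was at 2.54 CPM at 0 h, 2.92 at 24 h, 347 at 72 h and 46.4 at 72 h with MDSCs. It was above 0 in 1.66% of 0 h cells (49 of 2952, exact 95% interval 1.23 to 2.19%) and in 96.4% of 72 h cells (1856 of 1926, 95.4 to 97.2%). Its log2 ratio of 5.12 was the largest of all genes followed with levels under 10 CPM raised to 10. With a floor of 1 CPM it was 7.09, below H2-Ab1 at 7.99, Slc16a3 at 7.78, Aldoc at 7.39 and Ctla4 at 7.18. Intervals for shares of cells cover counting error only, and over the named genes none was wider than 1.82 percentage points to either side at 0 h or 2.26 at 72 h.

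Ankrd37, an ankyrin repeat protein known as a HIF target, went from 5.81 CPM at 0 h through 16.9 to 235, with 20.4 at 72 h with MDSCs. The HIF prolyl hydroxylase gene Egln3 was at 2.64, 15.8, 186 and 24.3 CPM in the same 4 libraries, and its paralogue Egln1 at 5.37, 16.7, 88.1 and 15.7. All 3 were low before stimulation and at 24 h, and in each the 72 h library with DCs stood far above the one with MDSCs. Ero1l, an oxidase of the endoplasmic reticulum, was at 19.0, 53.8, 349 and 38.2 CPM. Hilpda, a lipid droplet protein, was at 17.6, 46.3, 274 and 27.6 CPM. Both were past 2-fold already at 24 h. P4ha2, a collagen prolyl hydroxylase subunit, was listed at 0 at 0 h and at 44.0 CPM at 72 h, where 43.0% of cells were above 0. Ndrg1 stood at 3.58 CPM at 0 h and 171 at 72 h, and at 8.70 with MDSCs. Pdk1, the kinase that holds pyruvate dehydrogenase inactive, was the member within 2-fold at 72 h, at 74.9 CPM at 0 h, 21.2 at 24 h and 111 at 72 h. Hif1a itself was at 28.8, 58.8 and 87.7 CPM.

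Promoters of late hypoxia genes are shown, since 14 of the 21 members were called late. The stretches run from 250 bases before to 50 bases after the start of transcription (RefSeq, build GRCm38.p6) and are written in the direction of the gene, with capitals for ACGTG, the core of the element HIF binds, on either strand. The run of 6 capitals in Bnip3 holds the motif once on each strand.
Bnip3, chr7:138909457-138909756, minus strand: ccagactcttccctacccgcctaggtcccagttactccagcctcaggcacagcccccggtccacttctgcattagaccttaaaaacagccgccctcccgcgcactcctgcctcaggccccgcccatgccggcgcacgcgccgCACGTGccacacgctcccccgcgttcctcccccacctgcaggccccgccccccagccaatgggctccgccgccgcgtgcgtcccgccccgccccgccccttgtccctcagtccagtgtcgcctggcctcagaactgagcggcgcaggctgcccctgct
Ankrd37, chr8:45999801-46000100, minus strand: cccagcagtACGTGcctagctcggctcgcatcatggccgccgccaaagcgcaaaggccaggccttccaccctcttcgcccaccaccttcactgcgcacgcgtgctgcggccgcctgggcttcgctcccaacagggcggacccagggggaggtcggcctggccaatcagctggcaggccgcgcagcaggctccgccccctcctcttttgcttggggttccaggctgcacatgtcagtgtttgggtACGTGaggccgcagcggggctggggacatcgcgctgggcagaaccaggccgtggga
Egln3, chr12:54203825-54204124, minus strand: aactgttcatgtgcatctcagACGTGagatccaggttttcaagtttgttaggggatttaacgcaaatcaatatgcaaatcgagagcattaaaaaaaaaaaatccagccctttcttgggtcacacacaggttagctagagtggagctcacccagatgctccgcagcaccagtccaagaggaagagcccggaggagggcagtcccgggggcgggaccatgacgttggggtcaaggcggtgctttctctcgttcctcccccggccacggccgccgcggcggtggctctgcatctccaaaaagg

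Of the 21 hypoxia genes, 18 matched a promoter in the table, and 13 of these held ACGTG (72.2%), against 19.7% of all 27025 promoters of that length and 29.0% of the 4371 promoters of genes followed. A match describes letters and is not a measured binding site. HIF targets were chosen for this list, so a high share is built into the choice. It is no result about these cells.

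Glucose transport and glycolysis were higher in nearly every member. Of 19 genes followed, 18 were higher at 72 h and none lower (median log2 ratio 2.47), against 7 higher and 1 lower at 24 h (median 0.76) and 11 higher at 72 h with MDSCs (median 1.08). By class 11 were late, 6 lasting, 1 crossed and 1 returned. Among transporters, the glucose carrier Slc2a3 was at 8.52 CPM at 0 h, 8.11 at 24 h and 197 at 72 h, with 15.3 at 72 h with MDSCs. The other glucose carrier, Slc2a1, was at 8.37, 27.8, 99.9 and 14.7 CPM. The lactate exporter Slc16a3 was at 0.435, 2.30, 220 and 24.6 CPM, and was above 0 in 0.305% of 0 h cells and 93.4% of 72 h cells. Its relative Slc16a1, a carrier known for lactate in both directions, peaked at 24 h instead, at 9.24, 52.8, 23.7 and 14.2 CPM. At 24 h Slc2a3 and Slc16a3 were still under the 10 CPM floor, while Slc2a1 and Slc16a1 were past 2-fold.

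The enzymes divided in the same way. Hk2, the inducible hexokinase, was lasting at 0.605 CPM at 0 h, 55.6 at 24 h and 65.9 at 72 h. Lactate dehydrogenase A (Ldha) was lasting at 701, 1982 and 3671 CPM, and Gapdh at 890.0, 2304 and 7827. Aldoc, an aldolase known mainly from brain, was late at 0.581, 0.247 and 168 CPM. The abundant enzymes Aldoa, Tpi1 and Pkm were late as well, at 552, 209 and 485 CPM at 0 h against 3858, 1603 and 2354 at 72 h. Eno3, the muscle enolase, was the member called returned, at 5.27, 37.3 and 17.8 CPM, within 2-fold only with its 0 h level raised to 10. The motif ACGTG lay in 9 of the 18 glycolysis promoters that matched (50%), against 19.7% of all and 29.0% of those of genes followed. Pgk1 and Ldha are in both lists, and HIF targets include glycolysis genes, so that share too is no result about these cells.

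The shift was seen cell by cell. Summed over the 23 measured glycolysis genes, the median cell held an adjusted value of 53 at 0 h and 357 at 72 h, and 100.0% of the 72 h cells lay above the 95th percentile of the 0 h cells. For hypoxia genes the median was 21 at 0 h and 133 at 72 h, with 99.9% of 72 h cells above that percentile. At 24 h the median was already 116 for glycolysis and 44 for hypoxia genes. Above the 0 h percentile lay 90.7% and 81.8% of 24 h cells. With MDSCs at 72 h these shares were 95.6% and 77.2%.

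**Figure D3:**
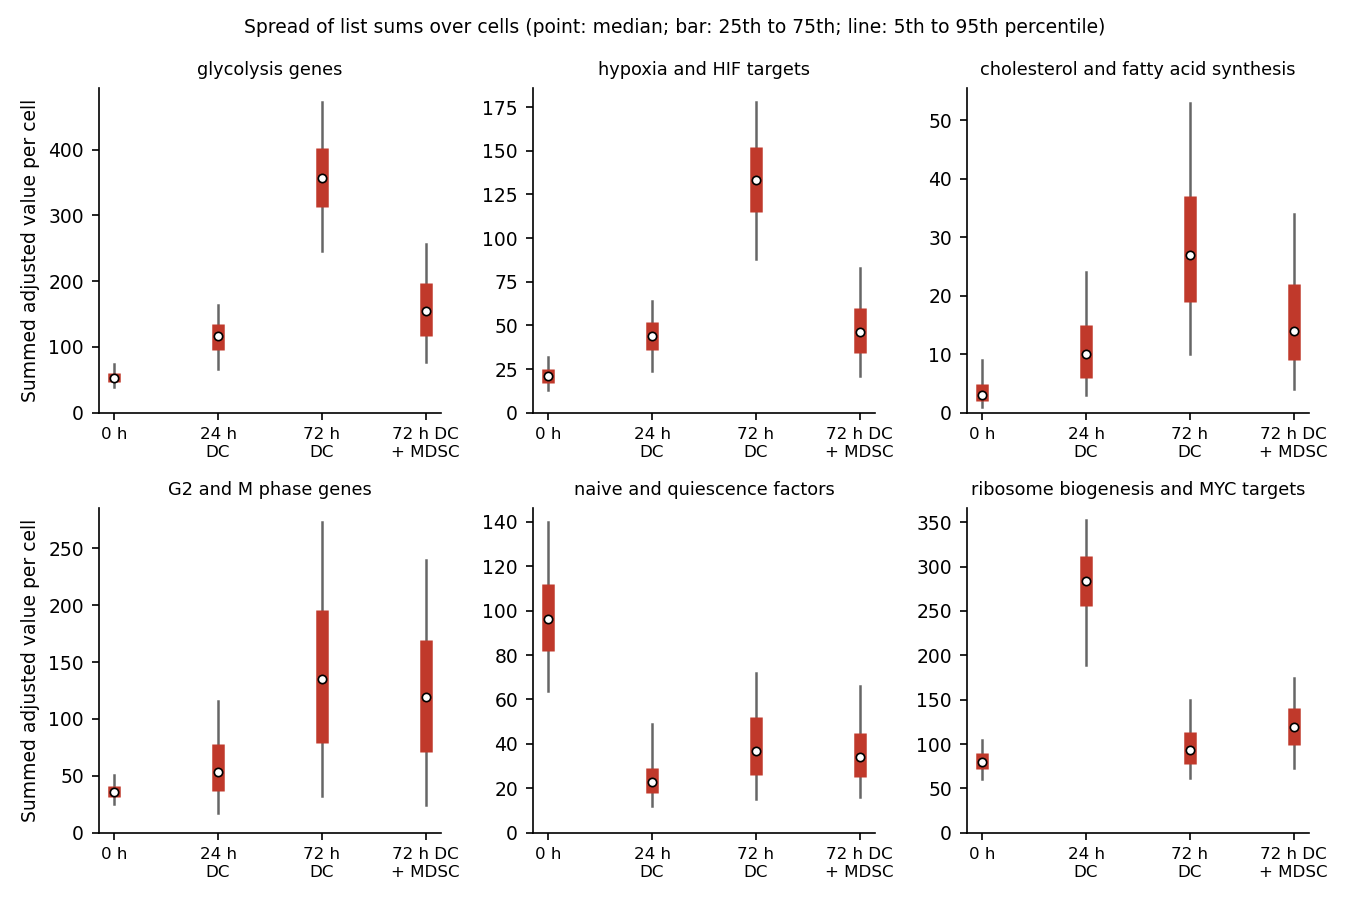
Summed adjusted value per cell (y) of 6 gene lists in 4 libraries (x), with the median as a point, the 25th to 75th percentile as a bar and the 5th to 95th percentile as a line. Glycolysis, hypoxia and sterol sums are highest at 72 h with DCs, naive and quiescence factors are highest at 0 h, and ribosome biogenesis peaks at 24 h and lies near 0 h at 72 h.

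Lipid synthesis was the other metabolic program above its starting level. Of 25 genes of cholesterol and fatty acid synthesis followed, 24 were higher and none lower at 72 h (median log2 ratio 2.34), against 14 higher and 1 lower at 24 h (median 1.15) and 17 higher with MDSCs (median 1.42). By class 13 were lasting, 10 late, 1 crossed and 1 returned. Hmgcs1, which makes the first committed precursor of the sterol pathway, was at 10.7 CPM at 0 h, 27.4 at 24 h and 90.5 at 72 h. Idi1, the isomerase further down, was at 4.21, 69.7 and 58.1 CPM, and fatty acid synthase (Fasn) at 7.52, 56.7 and 40.9. These were lasting. The stearoyl-CoA desaturase Scd1 was listed at 0 in the 0 h cells, at 0.494 CPM at 24 h and at 50.5 at 72 h, where 45.0% of cells were above 0. Its paralogue Scd2 crossed, at 34.6, 7.65 and 312 CPM. Fdps, which makes farnesyl diphosphate, is a low variance gene and was at 84.4, 49.5 and 289 CPM.

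Nearly all nuclear genes of respiration stayed within 2-fold of 0 h, while several genes of the mitochondrial genome were lower. Of 51 nuclear genes of oxidative phosphorylation, 47 were within 2-fold at both times, and at 72 h 1 was higher and none lower (median log2 ratio 0.17, and -0.12 when centred on all genes). The exception was Ndufv3, a complex I subunit, at 261 CPM at 0 h, 87.0 at 24 h and 613 at 72 h. The sum of the nuclear list per cell was nevertheless higher, with a median of 273 at 0 h and 362 at 72 h. At 72 h 67.3% of cells lay above the 95th percentile of the 0 h cells, and 96.3% with MDSCs. Of 13 genes of the mitochondrial genome, 6 were lower and 1 higher at 72 h (median -0.87). Cytochrome b (mt-Cytb) was at 2596, 1081 and 1050 CPM, whereas mt-Co1, a cytochrome oxidase subunit, was at 4068, 2131 and 5086. The mitochondrial share of the whole library was 2.66% at 0 h, 1.57% at 24 h and 1.65% at 72 h.

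By their calls, cell division genes followed a timed order. The S phase list, replication enzymes and licensing factors, was higher in 37 of 44 members at 24 h and in 28 at 72 h, with none lower at either time (medians 1.68 and 1.18). By class 27 were lasting, 10 returned, 1 late and 6 within 2-fold. The replication-coupled methylation reader Uhrf1 was at 4.50 CPM at 0 h, 84.1 at 24 h and 60.9 at 72 h. The origin factor Cdc6 was at 0.266, 35.7 and 21.2 CPM. Chromatin assembly factor Chaf1a was at 0.726, 56.2 and 38.3 CPM. All 3 were somewhat lower at 72 h than at 24 h and remained past 2-fold of 0 h. With MDSCs 25 of 44 were higher (median 1.14). Centred on all genes, 19 were higher at 72 h.

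Most calls in the G2 and M phase list came after that. At 24 h 6 of 52 members were higher and 3 lower (median 0.05), and at 72 h 47 were higher and none lower (median 1.88). By class 38 were late, 6 lasting, 3 crossed and 5 within 2-fold. Cyclin B2 (Ccnb2) was at 3.77 CPM at 0 h, 1.73 at 24 h, 178 at 72 h and 140 at 72 h with MDSCs, and was above 0 in 4.84% of 0 h cells and 76.1% of 72 h cells. The proliferation marker Mki67 was at 3.19, 19.1, 135 and 90.3 CPM. The centromere protein gene Cenpf was at 0.943, 19.1, 119 and 104 CPM. Values at 72 h with MDSCs lay closer to those with DCs alone here than for the hypoxia genes. Of the 52, 9 are low variance genes, among them topoisomerase Top2a at 74.7, 114 and 370 CPM. Without low variance genes 39 members were higher, and the median was 1.97. With MDSCs 41 of 52 were higher (median 1.66). The per-cell sum of the list had a median of 36 at 0 h, 53 at 24 h and 135 at 72 h. At 24 h 52.3% of cells already lay above the 95th percentile of the 0 h cells. The spread at 72 h was wide (32 to 273 from the 5th to the 95th percentile).

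The promoter of Ccnb2 is shown with capitals for TTTGAA, the sequence known as the cell cycle homology region, and for CCAAT, the site of the factor NF-Y, on either strand.
Ccnb2, chr9:70421505-70421804, minus strand: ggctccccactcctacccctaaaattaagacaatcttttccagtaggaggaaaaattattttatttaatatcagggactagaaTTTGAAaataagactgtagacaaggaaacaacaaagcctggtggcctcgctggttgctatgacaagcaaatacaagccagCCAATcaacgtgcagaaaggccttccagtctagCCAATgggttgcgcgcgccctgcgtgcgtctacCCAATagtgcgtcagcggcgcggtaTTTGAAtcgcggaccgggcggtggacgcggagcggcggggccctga

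TTTGAA lay in 31 of the 44 G2 and M phase promoters that matched (70.5%), against 18.1% of all promoters and 12.2% of those of genes followed. CCAAT lay in 34 of 44 (77.3%), against 37.9% and 39.6%. Known G2 and M phase genes were chosen for this list, so high shares may be built into the choice. They are no result about these cells.

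Histone transcripts moved with division: 8 of 12 followed were higher at 72 h and none lower (median 1.23), with the linker histone Hist1h1b at 0.0726 CPM at 0 h, 14.4 at 24 h and 70.2 at 72 h. Among CDK inhibitors, p27 (Cdkn1b) was at 23.1, 3.33 and 33.9 CPM and had returned, as had p19 (Cdkn2d) at 141, 18.7 and 197. The gene of p21, Cdkn1a, is a low variance gene and was at 68.8, 73.2 and 177 CPM, and at 395 with MDSCs.

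The clearest return was in the early burst of activation. Of 14 cytokine and chemokine genes followed, 10 were higher and 3 lower at 24 h (median log2 ratio 1.89), and 1 was higher and 1 lower at 72 h (median -0.07). Interleukin 2 (Il2), the T cell growth factor, was at 5.88 CPM at 0 h, 715 at 24 h and 8.98 at 72 h. Interferon gamma (Ifng) was at 1.60, 123 and 0.480 CPM. The chemokine Ccl4 was at 11.1, 1148 and 0.994 CPM, Ccl3 at 1.55, 339 and 0.240, and Xcl1 at 7.23, 471 and 2.57. When only levels under 1 CPM were raised, to 1, the log2 ratios at 72 h were -3.47 for Ccl4 and -1.49 for Xcl1, so both lay below their low starting levels. Mif, macrophage migration inhibitory factor, was the member that stayed high, at 783, 2776 and 2877 CPM. Ltb, the lymphotoxin beta chain, returned from below, at 773, 121 and 566 CPM.

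Ccl5, the chemokine of memory CD8+ cells, was the member that stayed low. It was at 755 CPM at 0 h, 66.2 at 24 h, 67.4 at 72 h and 11.9 at 72 h with MDSCs. The share of cells above 0 was nevertheless 23.1% at 0 h (95% interval 21.6 to 24.7%) and 443 of 1926 cells at 72 h (21.1 to 24.9%). The levels thus differed while the shares did not, within their intervals. Its variance over mean was 226 at 0 h and 107 at 72 h.

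Ribosome biogenesis and MYC target genes also left their high 24 h level. At 24 h 31 of 36 were higher and none lower (median 1.64). At 72 h none was higher and 10 were lower (median -0.60), and 23 had returned while 8 had crossed. Of all 2030 genes higher at 24 h, 71.6% had returned, 27.6% were lasting and 17 had crossed. The list thus differed from all genes in crossed and lasting members more than in its share returned. Myc was at 40.0 CPM at 0 h, 156 at 24 h and 37.2 at 72 h. Spermidine synthase (Srm) was at 126, 855 and 71.3 CPM, and the box C/D core protein gene Nop56 at 154, 467 and 90.9. The nucleolar genes Gnl3 and Rrp9 passed below their starting level, at 83.1, 199 and 29.3 CPM and at 84.0, 238 and 26.1. Npm1, nucleophosmin, was the farthest above, at 1675, 5342 and 3208 CPM. At 72 h with MDSCs 1 member was higher and none lower (median -0.02). Without genes whose variance over mean at 0 h was below 1, 3 members were lower and the median was -0.17. The E-box CACGTG, which MYC binds, lay in 7 of 30 matched promoters (23.3%), against 7.24% of all and 11.4% of those of genes followed. MYC targets were chosen for this list, so that share is no result about these cells.

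By their calls most chaperones came back, with 12 of 25 higher at 24 h (median 0.98) and 3 at 72 h (median 0.02). Among the 3 was Hsp90ab1 at 1179, 4094 and 2825 CPM. Of the 12, 10 had returned, beside 71.6% of all genes higher at 24 h. The chaperone sum per cell came back only in part, with a median of 106 at 0 h, 289 at 24 h and 158 at 72 h. At 72 h 74.0% of cells lay above the 95th percentile of the 0 h cells. Over all genes followed 36.4% were higher at 24 h and 20.2% at 72 h. Proteasome subunits were within 2-fold at 72 h in all 31 members (median -0.03). When ratios are centred on all genes no chaperone was higher, 1 proteasome subunit was lower, and the medians were -0.27 and -0.32. Genes of the integrated stress response and amino acid supply were higher in 15 of 31 at 24 h and in 12 at 72 h. Asparagine synthetase (Asns) was at 0.0968, 15.3 and 42.1 CPM, and the pseudokinase Trib3 at 0.943, 5.06 and 40.7.

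Activation receptors and regulators split between return and persistence. Of 22 early activation genes, 17 were higher at 24 h and none lower (median 1.73), against 9 higher and 3 lower at 72 h (median 0.57). Tnfrsf4, which encodes the costimulatory receptor OX40, was at 2.01 CPM at 0 h, 159 at 24 h and 122 at 72 h. The transcription factor gene Irf4 was at 0.145, 102 and 21.7 CPM, past 2-fold by little, with a log2 ratio of 1.12 that became 0.83 when centred. Cd69, an early activation and tissue retention marker, was at 158, 135 and 36.9 CPM and thus lower than in resting cells. Nfkbia, the inhibitor of NF-kB, crossed at 168, 424 and 64.8 CPM. Without low variance genes 7 members were higher (median 0.16).

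Inhibitory receptors were few among the genes followed. Lag3, a receptor for MHC class II, was at 2.18 CPM at 0 h, 75.9 at 24 h, 166 at 72 h and 46.6 with MDSCs. Ctla4, which competes with CD28, was at 0.0968, 25.1, 145 and 48.8 CPM and above 0 in 78.9% of 72 h cells. Pdcd1, which encodes PD-1, did not reach the minimum, at 0.121, 14.8 and 2.13 CPM. Havcr2 and Tigit were at 0.994 CPM or less in the 3 libraries. Lag3 and Ctla4 were lasting, and Cd160 and Btla were within 2-fold at both times. With a floor of 1 CPM the log2 ratio of Btla at 72 h was -1.28.

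Effector genes were not uniformly higher. Of 12 cytotoxic and effector genes followed, 3 were higher and 1 lower at 72 h (median log2 ratio -0.07), against 3 and 3 at 24 h. Over all genes followed 20.2% were higher and 4.57% lower at 72 h, so the counts of this short list lay near those shares. Granzyme B (Gzmb) was at 266 CPM at 0 h, 1118 at 24 h, 1796 at 72 h and 2592 with MDSCs, a log2 ratio of 2.76 at 72 h. It was above 0 in 99.7% of 0 h cells, 64.3% of 24 h cells and 99.5% of 72 h cells, so the share of positive cells does not follow the level. Granzyme A (Gzma) was late, at 43.1, 26.3, 181 and 77.9 CPM, and was above 0 in 3.93% of 0 h cells (3.26 to 4.69%) and 39.0% of 72 h cells (36.8 to 41.2%). Perforin (Prf1) stayed at 1.67 CPM or less in these libraries. The receptor gene Klrd1 was at 196, 6.67 and 76.7 CPM and Nkg7, a granule membrane protein gene, at 1122, 562 and 986.

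Effector and memory transcription factors were higher in 7 of 15 and lower in 1 at 72 h (median 0.72). Bhlhe40 was at 1.94, 63.5, 89.3 and 19.8 CPM in the 0 h, 24 h, 72 h and MDSC libraries. Id2, which favours effector fate, was late at 60.5, 71.5, 162 and 61.0 CPM. Tbx21, which encodes T-bet, was at 2.81, 43.7 and 13.2 CPM, and Eomes at 7.499, 30.7 and 4.25, and both were called returned. For Tbx21 that call rests on the floor: with a floor of 1 CPM its log2 ratio at 72 h was 2.24, and it was above 0 in 1.52% of 0 h cells and 17.5% of 72 h cells. Tox was the lower member, at 23.4, 6.13 and 5.69 CPM. Among interleukin 2 receptor and STAT5 genes, the beta chain Il2rb was late at 40.2, 76.4 and 159 CPM, and the feedback inhibitor Cish was lasting at 5.90, 118 and 37.5. The survival gene Bcl2 had returned, at 266, 96.9 and 356 CPM, and Bcl2l1, which encodes Bcl-xL, was called returned from the other side at 6.46, 154 and 15.8. With a floor of 1 CPM the log2 ratio of Bcl2l1 at 72 h was 1.29, past 2-fold.

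**Figure D4:**
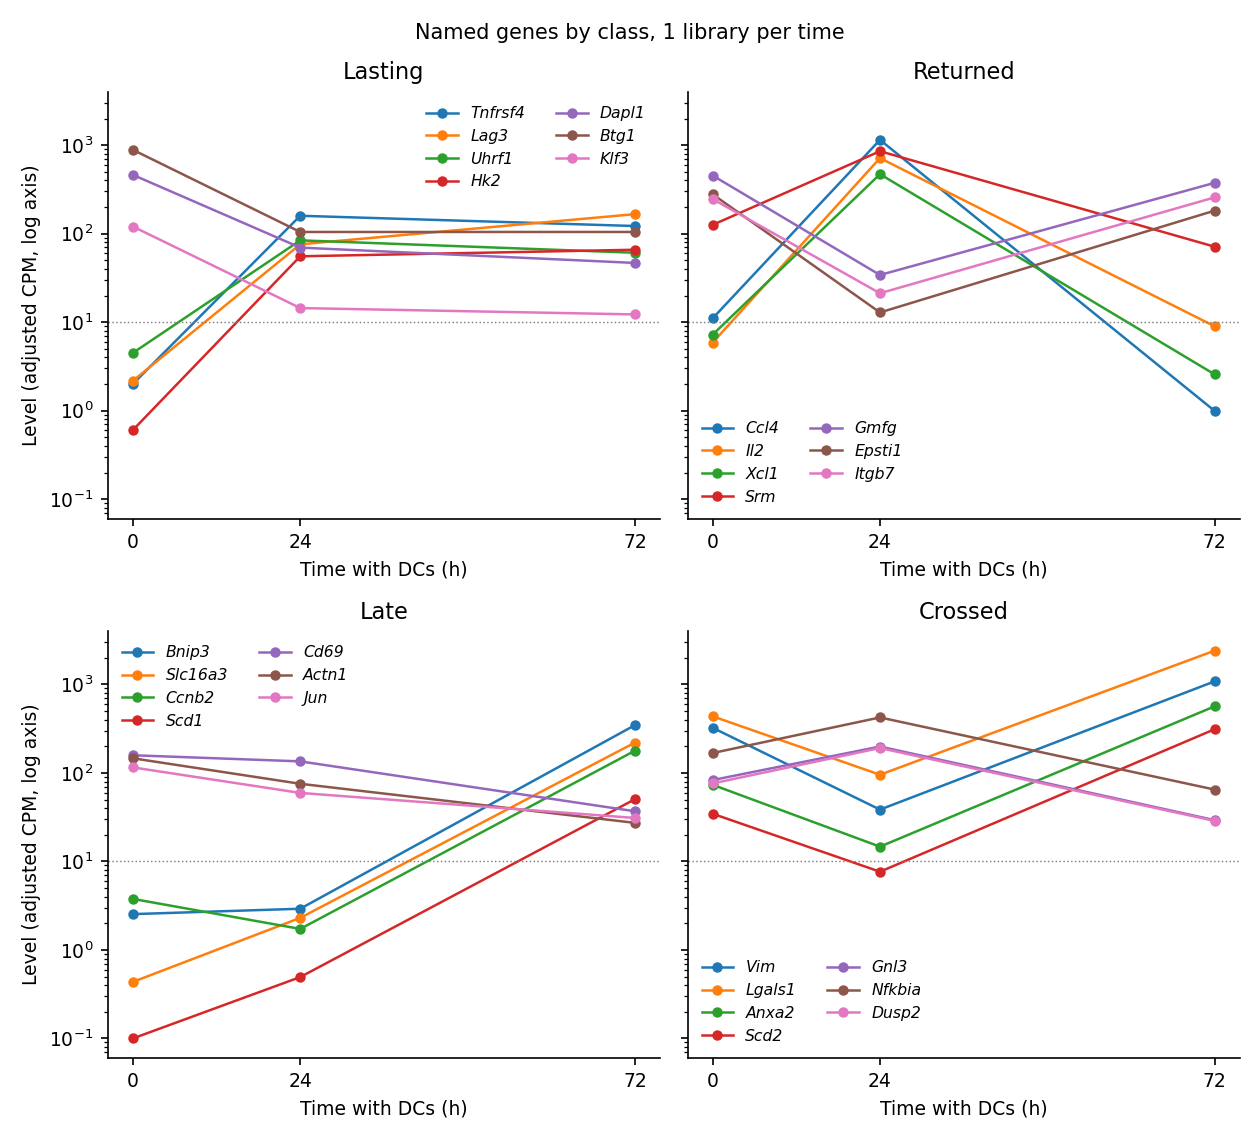
Level (y, adjusted CPM, log axis) of 7 named genes of each class at 0, 24 and 72 h with DCs (x), 1 library per time, with the dotted line at the 10 CPM below which levels were raised and Scd1, listed at 0 at 0 h, drawn at 0.1. Lasting genes lie on the same side of 0 h at both later times and returned genes come back. Late genes were called only after 24 h, and crossed genes lie on opposite sides at the 2 later times.

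Naive and quiescence factors stayed low. Of 25 followed, 20 were lower and 1 higher at 24 h (median log2 ratio -2.34), and 15 were lower and none higher at 72 h (median -1.21). With MDSCs 18 were lower (median -1.35). Btg1, an inhibitor of proliferation, was at 886 CPM at 0 h, 105 at 24 h, 105 at 72 h and 105 with MDSCs. The quiescence factor Klf3 was at 120 CPM at 0 h, 14.4 at 24 h and 12.2 at 72 h. Tcf7 and Lef1, transcription factors of naive and memory cells, were at 317, 131 and 78.7 CPM and at 296, 49.8 and 64.1. Dapl1, a marker of naive CD8+ cells, was at 462, 69.6 and 46.7 CPM. These 5 were lasting, and none of them moved back toward 0 h by 2-fold between 24 h and 72 h.

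Other members moved part or all of the way back. Klf2, which drives S1pr1, was at 947 CPM at 0 h, 20.5 at 24 h, 140 at 72 h and 22.7 with MDSCs. It was above 0 in 99.3% of 0 h cells, 11.1% of 24 h cells and 60.6% of 72 h cells. The egress receptor S1pr1 was at 98.5, 3.46 and 15.9 CPM, and the interleukin 7 receptor gene Il7r at 102, 9.34 and 41.4. The FOXO target Txnip, an inhibitor of glucose uptake, was at 82.0, 7.12 and 52.7 CPM and had returned. So had 4 GTPase genes, Gimap3, Gimap4, Gimap5 and Gimap6, at 190 to 360 CPM at 0 h, 75.6 to 102 at 24 h and 124 to 379 at 72 h.

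Homing genes did not move as a block. Of 8 followed, 5 were lower and none higher at 72 h (median -1.74), against 6 lower at 24 h and 8 lower with MDSCs. The chemokine receptor Ccr7, which guides entry into lymph nodes, was at 275, 513, 278 and 114 CPM in the 4 libraries. It was thus at its starting level at 72 h with DCs. The integrin chain Itgb7 was at 246, 21.2, 257 and 110 CPM, and the receptor S1pr4 at 111, 17.2, 94.5 and 25.4.

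Immediate early genes were below their starting level. Of 15 followed, 9 were lower and 1 higher at 72 h (median -1.04), and 12 were lower with MDSCs. Fos was at 161 CPM at 0 h, 2.76 at 24 h and 1.30 at 72 h, and was above 0 in 58.6% of 0 h cells and 1.82% of 72 h cells. Fosb was at 35.7, 1.44 and 0.686 CPM, and Jun at 116, 59.5 and 31.0. Nr4a1, a receptor-signal reporter gene, was at 3.36, 36.0 and 3.84 CPM. Ier3, also a hypoxia list member, was the higher one at 3.41, 32.4 and 87.7.

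The receptor complex came back unevenly. Of 21 genes of the T cell receptor complex, CD8 and proximal signalling, 9 were lower and 1 higher at 24 h (median -0.82), and 4 were lower and none higher at 72 h (median -0.63). Cd3g was at 1170 CPM at 0 h, 148 at 24 h and 972 at 72 h, and Cd3d at 1311, 331 and 1239. Cd3e was at 557, 129 and 315 CPM. The CD8 beta chain gene Cd8b1 was lasting at 1871, 548 and 784 CPM, while the alpha chain gene Cd8a was within 2-fold at both times at 659, 412 and 425. The other 3 members lower at 72 h were Cd2, at 364, 53.9 and 169 CPM, and the inhibitory coreceptors Cd5 and Cd6, at 68.5, 118 and 31.3 and at 107, 176 and 32.7. Cd5 and Cd6 were above 0 h at 24 h and below it at 72 h.

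Of the 34 genes below 0 h at 24 h and above it at 72 h, 4 were in the migration list. The list of migration genes, S100 proteins and annexins was lower in 16 of 23 and higher in 3 at 24 h (median -1.49), and at 72 h higher in 7 and lower in none (median 0.56). Of its members 13 had returned and 4 had crossed. Lgals1, which encodes galectin-1, was at 436 CPM at 0 h, 95.4 at 24 h, 2410.0 at 72 h and 2287 with MDSCs. The intermediate filament gene Vim was at 324, 38.5, 1084 and 975 CPM. Annexin A2 (Anxa2) was at 73.5, 14.7, 566 and 145 CPM. S100a6, a calcium-binding protein gene, was at 138, 10.3, 346 and 2632 CPM, the one member here far higher with MDSCs. At 0 h these 4 were above 0 in 99.9%, 99.8%, 87.1% and 99.3% of cells, and at 24 h in 37.6%, 20.7%, 15.0% and 7.68%. Tmsb10, which encodes an actin-binding thymosin, had returned at 6829, 953 and 5924 CPM, and so had Crip1 at 936, 74.7 and 1359.

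Crossed genes were the class most exposed to the narrow 0 h values. Without the 60 low variance genes 45 were left of 51, and without genes whose variance over mean at 0 h was below 1, a limit chosen after seeing the data, 31. Ctla2a, a cysteine protease inhibitor gene, was at 117 CPM at 0 h and above 0 in 99.4% of cells with a variance over mean of 1.05, then at 16.8 CPM in 14.3% of 24 h cells and at 683 CPM in 98.9% of 72 h cells.

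The metallothioneins, small proteins that bind zinc and copper, are both low variance genes. Mt1 was at 69.4 CPM at 0 h, 11.5 at 24 h, 1377 at 72 h and 368 with MDSCs. Its variance over mean was 0.0347 at 0 h, the lowest of all genes, and 21.7 at 72 h. Mt2 was at 46.9, 5.31, 635 and 260 CPM. Both were above 0 in most cells at 0 h (97.0% and 65.4%) and in few at 24 h (10.5% and 5.12%). Mt3 was at 0.0726 and 8.33 CPM at 0 h and 72 h. Both promoters are shown, with capitals for the metal response element searched as TGCGCNC and TGCACNC on either strand.
Mt1, chr8:94178839-94179138, plus strand: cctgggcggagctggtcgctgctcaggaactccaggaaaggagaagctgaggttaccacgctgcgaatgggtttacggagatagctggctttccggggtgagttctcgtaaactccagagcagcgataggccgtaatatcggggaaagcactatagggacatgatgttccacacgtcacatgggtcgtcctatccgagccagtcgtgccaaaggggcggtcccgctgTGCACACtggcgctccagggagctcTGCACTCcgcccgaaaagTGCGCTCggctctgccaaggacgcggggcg
Mt2, chr8:94172368-94172667, plus strand: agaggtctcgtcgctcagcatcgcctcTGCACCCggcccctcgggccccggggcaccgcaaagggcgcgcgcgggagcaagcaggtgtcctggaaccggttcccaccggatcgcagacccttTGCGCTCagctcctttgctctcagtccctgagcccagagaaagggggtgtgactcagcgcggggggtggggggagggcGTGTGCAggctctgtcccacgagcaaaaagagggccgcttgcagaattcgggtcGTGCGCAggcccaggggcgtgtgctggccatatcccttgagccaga

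Mt1 held 3 copies and Mt2 held 4. TGCGCNC lay in 15.5% of all promoters and 29.1% of those of genes followed, and TGCACNC in 12.4% and 12.01%.

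Of 3 class II genes followed, 2 were higher at 72 h and none lower, beside 20.2% and 4.57% of all genes followed. One of the 2 stood far apart. H2-Ab1, the beta chain of the MHC class II molecule I-A, was at 0.266 CPM at 0 h, 0.494 at 24 h, 255 at 72 h and 16.0 with MDSCs. It was above 0 in 5 of 2952 cells at 0 h (0.169%, 0.0550 to 0.395%) and in 1716 of 1926 at 72 h (89.1%, 87.6 to 90.5%). Its partner chain H2-Aa stayed at 0.514 CPM or less in these libraries, H2-Eb1 at 0.363, 1.07 and 1.27, the invariant chain Cd74 at 1.52, 18.6 and 2.91, and the class II regulator Ciita at 0.137 or less. The peptide-loading chain H2-DMa, the other class II gene higher at 72 h, was late at 35.2, 23.3 and 101 CPM. In class I and peptide loading 1 of 20 genes was higher and 1 lower at 72 h (median 0.20, and -0.09 when centred), with the immunoproteasome subunit Psmb9 at 237, 116 and 524 CPM.

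Interferon response genes split as well. Of 26 followed, 8 were higher and 4 lower at 72 h (median 0.26, and -0.02 when centred), against 2 higher and 11 lower at 24 h. Gbp2, a guanylate-binding protein, was at 25.2, 82.8 and 122 CPM and the surface antigen Ly6a at 227, 592 and 952. The interferon-stimulated genes Rtp4, Irf7 and Isg15 were at 36.4, 32.4 and 32.7 CPM at 0 h and at 2.13, 11.2 and 9.02 at 72 h. Among redox genes 5 of 19 were higher and none lower at 72 h, beside 20.2% and 4.57% of all genes followed. They were led by the peroxiredoxin Prdx4 at 3.82, 27.7 and 103 CPM and the transferrin receptor Tfrc at 5.25, 95.5 and 72.5. Of 12 p53 targets 3 were higher and 1 lower at 72 h (median 0.21), against 9 higher with MDSCs (median 1.58). With MDSCs 17.9% of all genes followed were higher. In genes higher at 72 h the redox and p53 lists lay near the share of all genes.

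**Figure D5:**
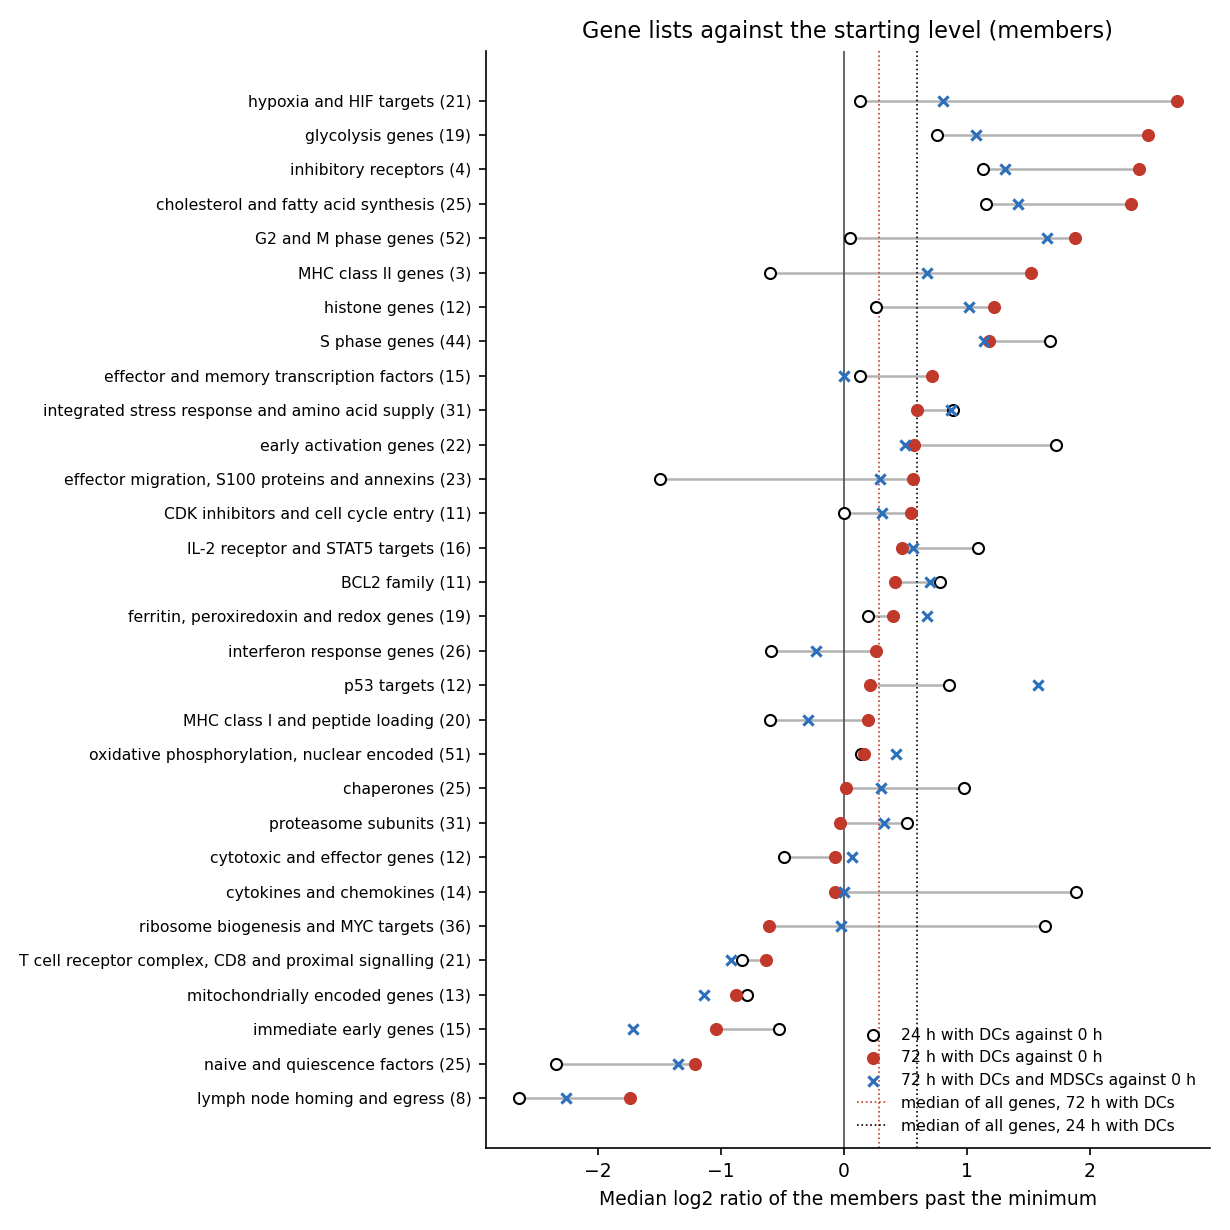
Median log2 ratio against 0 h (x) of the members followed in 30 gene lists (y, number of members in brackets) at 24 h with DCs (open circles), 72 h with DCs (red) and 72 h with DCs and MDSCs (blue crosses), with dotted lines at the medians of all genes, 0.59 at 24 h and 0.29 at 72 h. Hypoxia and glycolysis lists lie farthest above 0 at 72 h, followed by the 4 inhibitory receptors and the sterol list, homing and naive lists lie farthest below, and ribosome biogenesis moves from 1.64 to -0.60.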

How the data were processed

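RNA of single cells was measured in 5 libraries, and the all-timepoints table and its cell annotation were used. The deposited values are natural log values, ln(1 + a whole number), per gene and cell, and the whole numbers had been adjusted by the authors to a nearly constant total per cell, as the values themselves show. They are not molecule counts, so depth is unknown. The submitters' processing notes name Cell Ranger 2.0.1, Seurat and mm10. How cells were filtered and doublets treated is in none of the sources used, and no cell was removed.

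Values were turned back with exp(value) - 1, summed over the cells of a library and scaled to 1000000 (CPM). Genes reaching 20 CPM in the 0 h, 24 h or 72 h library with DCs were followed, levels under 10 CPM were raised to 10, and 2-fold was the call. No test was run, each group being 1 library. Variance over mean was taken over cells. Shares of cells carry exact (Clopper-Pearson) 95% intervals for counting error. Promoters came from RefSeq (GRCm38.p6). Named genes were the 12 largest ratios in each direction, 8 per class and direction, the 3 most extreme members of each list in each direction, 45 genes listed by name, 8 low variance genes, and other list members where their list is described. One list member is not reported here. The members and gene lists were chosen with earlier results of these data known. Alternatives changed cell weighting, summary, centring, total, minimum, floor, fold and low variance genes. Python 3.11.15, numpy 2.4.6, pandas 2.3.3 and matplotlib 3.10.9 were used, and the call rule was tested on simulated data.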

Additional observations from a re-analysis of the deposited data

Results flagged for a closer look

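On opposite sides of 0 h at 24 h and at 72 h with DCs lay 51 genes. The 20 of them named by a fixed rule are given here with their log2 ratios to 0 h. Crossed genes mentioned otherwise, such as S100a6, are not repeated. The difference between the 2 times was not tested, since each is 1 library, and both ratios share the 0 h library.

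Among genes lower first and higher later, the structural and migration genes Anxa2 (-2.32 at 24 h and 2.95 at 72 h), Lgals1 (-2.19 and 2.47) and Vim (-3.07 and 1.74) stood beside the protease inhibitor gene Ctla2a (-2.80 and 2.54). The metallothioneins Mt1 (-2.59 and 4.31) and Mt2 (-2.23 and 3.76) are low variance genes at 0 h. The desaturase gene Scd2 was at -1.79 and 3.17, the stress gene Ddit4 at -2.20 and 1.97, and the centromere histone gene Cenpa at -2.98 and 1.97. The interferon-responsive genes Phf11b (-1.63 and 1.70) and Psmb9 (-1.03 and 1.15) and the complex I gene Ndufv3 (-1.58 and 1.23) completed this group. Of its members, Cenpa, Anxa2 and Scd2 also had narrow 0 h values, with a variance over mean between 0.5 and 1. The limit of 1, chosen after seeing the data, leaves these 3 genes out, so their crossing rests on doubtful 0 h levels. At 24 h 2449 of 4753 genes at 20 CPM or more also lay below 1, so narrow values are not particular to 0 h at this limit.

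Among genes higher first and lower later, 4 of the 8 belonged to ribosome biogenesis: Rrp9 (1.502 and -1.69), Gnl3 (1.26 and -1.50), Ppan (2.16 and -1.25) and Dkc1 (1.21 and -1.36). The complex I assembly factor gene Ndufaf4 was at 2.12 and -1.37. The feedback regulators Nfkbia (1.34 and -1.37) and Dusp2 (1.33 and -1.41) and the GTPase activator gene Tagap (1.49 and -1.27) were the others. Here Rrp9, Gnl3 and Dkc1 had a variance over mean between 0.5 and 1 at 0 h, and the limit of 1 leaves them out too.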

How the results depend on the processing

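The 1129 genes higher and 255 lower at 72 h, and the classes of 736 lasting, 1815 returned, 597 late and 51 crossed, were counted again under 12 other settings, 1 of them chosen after seeing the data. Centred on the median ratio, a shift of -0.29, 676 were higher, 423 lower and 482 lasting, so 61.5% of calls were higher in place of 81.6%. With ribosomal protein and mitochondrial genes left out of the total 435 were lower, and 74.3% of calls were higher. At a minimum of 50 CPM 507 were higher, 385 lasting, 889 returned and 251 late. With a floor of 1 CPM 97 had crossed, and 1099 were lasting and 424 late. At 1.5-fold 1975 were higher, 552 lower, 1619 lasting and 197 crossed. At 3-fold 401 were higher, 75 lower, 171 lasting, 949 returned, 295 late and 10 crossed. Without genes whose variance over mean at 0 h was below 1, the setting added later, 31 had crossed. A higher fold, a higher minimum and dropped genes leave fewer genes to call by construction, and for the other settings the cause was not tested. No result took the opposite sign while past 2-fold. Of 213 named genes, 12 lost the 2-fold call and 10 gained it when centred. From mean natural log values 10 lost it and 7 gained it, and with the floor of 1 CPM none lost it and 10 gained it. With the other total 6 lost it and 15 gained it, and the named genes left out of that total were not counted there. No paired analysis was possible because each group is 1 library. Leaving out a replicate was not possible for the same reason.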
